A study of Mus musculus with 10 samples.

Results

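The genes described here are 8 mouse genes of lipoprotein and lipid transport, Apoe, Clu, Abca1, Abcg1, Lpl, Lrp1, Lcat and Apod, taken by symbol from a table of 21101 genes measured by RNA sequencing in 10 libraries of cultured neural stem cells. All 8 were found, and all 8 were among the 15660 genes that reached at least 1 TPM (a level scaled to the library total and to transcript length) in at least 2 libraries and were tested. Abcg1 and Apod reached that level in only 3 libraries each, and both control libraries in differentiation medium were among these 3 for either gene, so their passing the filter already depended on that group.

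Neural stem cells are dividing cells that can give rise to neurons, astrocytes and oligodendrocytes. The 10 libraries fall into 4 groups. The Atrx-deleted lines, which numbered 3 (mA16d#4, mA19d#4 and mA19d#7), were each sampled once after 8 days in differentiation medium, which is neural basal medium with B27 and no growth factors, and so were 2 control lines, Control NSC#1 and Control NSC#2. The same 3 Atrx-deleted lines and the same 2 control lines each gave 1 library from proliferation medium, which held 20 ng/ml of EGF and bFGF. Every library, controls included, came from cells that were null for p53 and carried transduced mutant IDH1(R132H). Atrx encodes a chromatin remodeller. A line stands for 1 library per medium, and p-values measure the spread between these lines only. Nothing in the labels says whether lines of one genotype were derived independently. The names mA19d#4 and mA19d#7 share a stem, and whether these 2 lines share an origin is not stated. The sample codes of Atrx-deleted and control libraries carry different prefixes, so a difference in handling that followed the prefix cannot be told apart from genotype.

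Lipids move between brain cells on lipoprotein particles that are built outside the cell. Abca1 and Abcg1, membrane pumps of the ATP-binding cassette family, pass cholesterol and phospholipid to apolipoproteins such as the products of Apoe and Clu. Enzymes such as lecithin-cholesterol acyltransferase (Lcat) and lipoprotein lipase (Lpl) remodel the particles, and lipoprotein receptors, Lrp1 among them, take them up. In the brain astrocytes are the main source of Apoe, and the nuclear liver X receptors are known to switch on Abca1, Abcg1 and Apoe when sterols accumulate.

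The files give no read counts, and the libraries share one sorted list of 21101 values, so the TPM of a gene is set by its rank in its library and depth is unknown. Atrx itself lay between 42.8 and 74.0 TPM in the 6 Atrx-deleted libraries and between 127 and 163 TPM in the 4 control libraries, with no overlap in either medium. The library labelled mA19d#7 in differentiation medium stood apart from its group. Its Spearman correlation over genes was highest with the mA16d#4 library in proliferation medium (0.957), above its value with its own line in proliferation medium (0.926) and with the 2 other Atrx-deleted libraries in differentiation medium (0.938 and 0.915). Differences between Atrx-deleted and control lines in differentiation medium are therefore given with and without it for each of the 8 genes, and so are the differences of Apoe and Clu between media.

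Apoe was the gene of the set with the highest level in each of the 4 groups. In the main fit, with all 10 libraries, a variance trend and no block or weights, only Apoe passed the test in any comparison. In control lines Apoe rose by 3.53 on the log2(TPM + 1) scale in differentiation medium, and in differentiation medium it was lower in Atrx-deleted than in control lines by 2.44. Abca1, the pump that starts particle formation, had lower levels in all 6 Atrx-deleted libraries than in all 4 control libraries, without passing the test in either medium. Clu and Abcg1 had the same sign as Apoe in both of these comparisons, and neither passed the test in the main fit. With that block Clu passed between media in control lines. Lpl, Lrp1, Lcat and Apod passed the test in none of the comparisons.

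Apoe (ENSMUSG00000002985) encodes apolipoprotein E, the main lipid-carrying protein secreted in the brain, and lies on the minus strand of chromosome 7 at 19696109 to 19699188 (GRCm38). Because it was the gene that passed the test, the 250 bases before its annotated start are printed here with those of Abca1, the exporter that loads it. Both were taken from RefSeq (GRCm38.p6), 5′ to 3′ on the strand of the gene, which is the minus strand for both. Apoe is at chr7:19699189-19699438 and Abca1 at chr4:53159896-53160145. Capitals mark matches to any of 7 motifs searched on both strands. These were AGGTCA, which nuclear receptors bind, its direct repeat spaced by 4 bases, the palindromic motif of the NFI factors, the E-box CACGTG, the AP-1 form TGANTCA, the GC box GGGCGG and the TATA box TATAAA. The repeat contains the single motif, and the E-box reads the same on both strands.
Apoe: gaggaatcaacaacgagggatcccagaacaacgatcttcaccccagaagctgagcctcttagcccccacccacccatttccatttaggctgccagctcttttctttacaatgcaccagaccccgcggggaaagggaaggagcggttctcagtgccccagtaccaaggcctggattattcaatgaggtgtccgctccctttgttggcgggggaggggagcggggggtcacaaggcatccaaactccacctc
Abca1: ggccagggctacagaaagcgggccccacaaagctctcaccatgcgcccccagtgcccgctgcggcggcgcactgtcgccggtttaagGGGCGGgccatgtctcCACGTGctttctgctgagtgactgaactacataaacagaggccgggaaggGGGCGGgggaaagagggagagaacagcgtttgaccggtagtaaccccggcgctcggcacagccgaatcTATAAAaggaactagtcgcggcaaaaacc
None of the 7 motifs was present in this Apoe window. RefSeq lists 3 starts for Apoe, and the window shown is that of the start at the annotated end of the gene. The window of the start 567 bases downstream held the TATA box at 100 bases (reverse strand) and 96 bases before that start, and the window of the start 790 bases downstream held none of the 7. The Abca1 window held the GC box at 163 and 97 bases before the start, the E-box at 147 bases and the TATA box at 29 bases. Among 32851 RefSeq promoters of the same length, 32.7% held the GC box, 6.02% the E-box and 12.4% the TATA box, while 14% held the single nuclear receptor motif and 6.75% the AP-1 form. The direct repeat was present in 0.0152% of them and the NFI motif in 0.0365%. GC content was 57.2% in the Apoe window and 61.6% in the Abca1 window, against a median of 52.4%. Of the 8 genes, 5 were matched in this table. Only full matches to the 7 forms were searched, so a site that departs from them is not marked. These matches describe letters only, and a window without a match is not shown to lack a site.

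In differentiation medium Apoe had 1451, 977 and 955 TPM in the Atrx-deleted lines mA16d#4, mA19d#4 and mA19d#7, against 5423 and 6640 TPM in Control NSC#1 and Control NSC#2. The groups did not overlap, and the lowest control library was more than 3 times the highest Atrx-deleted one. Apoe was the gene of rank 40, 79 and 83 in the Atrx-deleted libraries, against ranks 4 and 3 in the control libraries, where it made up 0.544% and 0.666% of the summed TPM. Means were 1128 ± 280 TPM in Atrx-deleted lines (SD, n = 3) and 6032 ± 860 TPM in control lines (SD, n = 2). The difference was -2.44 on the log2 scale (SE 0.516, 95% interval -3.58 to -1.29, limma adjusted p = 0.0372 over 15660 genes). The exact two-sided permutation test over lines gave p = 0.1, the smallest value that 3 lines against 2 allow. In bulk RNA fewer cells that express a gene and less of its RNA per cell cannot be told apart.

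In proliferation medium Apoe had 440, 1029 and 1733 TPM in mA16d#4, mA19d#4 and mA19d#7, against 359 and 753 TPM in Control NSC#1 and Control NSC#2. The groups overlapped, and the Atrx-deleted lines spread about 4-fold among themselves. Means were 1067 ± 647 TPM in Atrx-deleted lines (SD, n = 3) and 556 ± 279 TPM in control lines (SD, n = 2), a log2 difference of 0.83 (95% interval -0.32 to 1.97, limma adjusted p = 0.525). The sign was thus opposite to that in differentiation medium, where the same lines were compared.

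**Figure D1:**
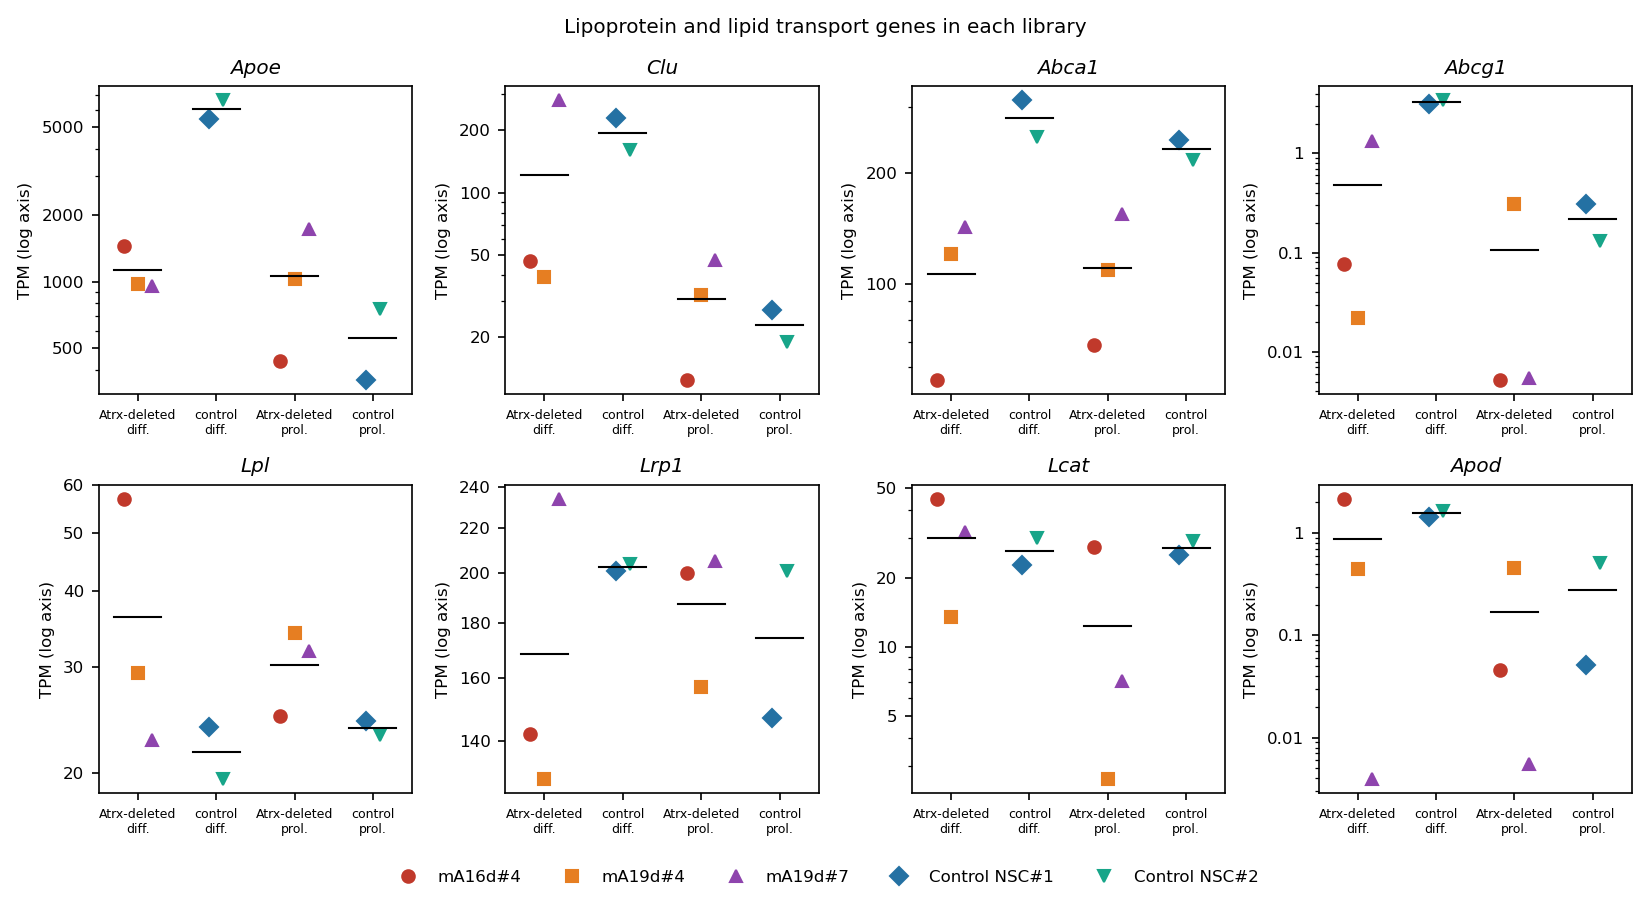
Level in TPM (log axis, separate scale per gene) of the 8 lipid transport genes in each library, with the line given by symbol and colour and the group mean by a bar; diff. is differentiation and prol. proliferation medium. Apoe in differentiation medium lay between 955 and 1451 TPM in Atrx-deleted lines and between 5423 and 6640 TPM in control lines, and Abca1 was lower in all Atrx-deleted libraries than in all control libraries.

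The ratio of the level in differentiation medium to that in proliferation medium within a line put the lines in order. For Apoe the ratio was 3.3 in mA16d#4, 0.949 in mA19d#4 and 0.551 in mA19d#7, against 15.1 in Control NSC#1 and 8.82 in Control NSC#2. Both control lines therefore had a higher ratio than any Atrx-deleted line, and among the Atrx-deleted lines only mA16d#4 had more Apoe in differentiation than in proliferation medium. In control lines Apoe rose by 3.53 (SE 0.566, 95% interval 2.27 to 4.78, limma adjusted p = 0.0108). Without the mA19d#7 library in differentiation medium this rise was also 3.53 (limma adjusted p = 0.00851). In Atrx-deleted lines the difference was 0.26 (95% interval -0.76 to 1.29, limma adjusted p = 0.835), and 0.37 without the mA19d#7 library in differentiation medium (limma adjusted p = 0.733). The test of the difference between these responses gave -3.26 (SE 0.73, 95% interval -4.89 to -1.64), with an unadjusted limma p of 0.00113 and a limma adjusted p of 0.331, so the responses were not shown to differ once all genes were counted. Without that library it was -3.16 (limma adjusted p = 0.206). The exact two-sided permutation test over lines, with all libraries, on the same difference gave p = 0.2. In that comparison limma called 0.00639% of tested genes.

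The calls on Apoe depended on single libraries. The difference between Atrx-deleted and control lines in differentiation medium lay between -2.63 and -2.29 with each library left out in turn, and its limma adjusted p between 0.0182 and 0.239. It was above 0.05 without the differentiation library of Control NSC#1 (0.239) or Control NSC#2 (0.193), without either control library in proliferation medium (0.0562 and 0.0554), and without mA19d#4 in differentiation (0.0655) or proliferation medium (0.0647). Without the differentiation library labelled mA19d#7 the difference was -2.33 (limma adjusted p = 0.0485). The rise in control lines lay between 2.99 and 4.06, and its limma adjusted p was 0.148 without Control NSC#1 in proliferation medium, and 0.0818 and 0.0827 without Control NSC#1 and Control NSC#2 in differentiation medium.

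**Figure D2:**
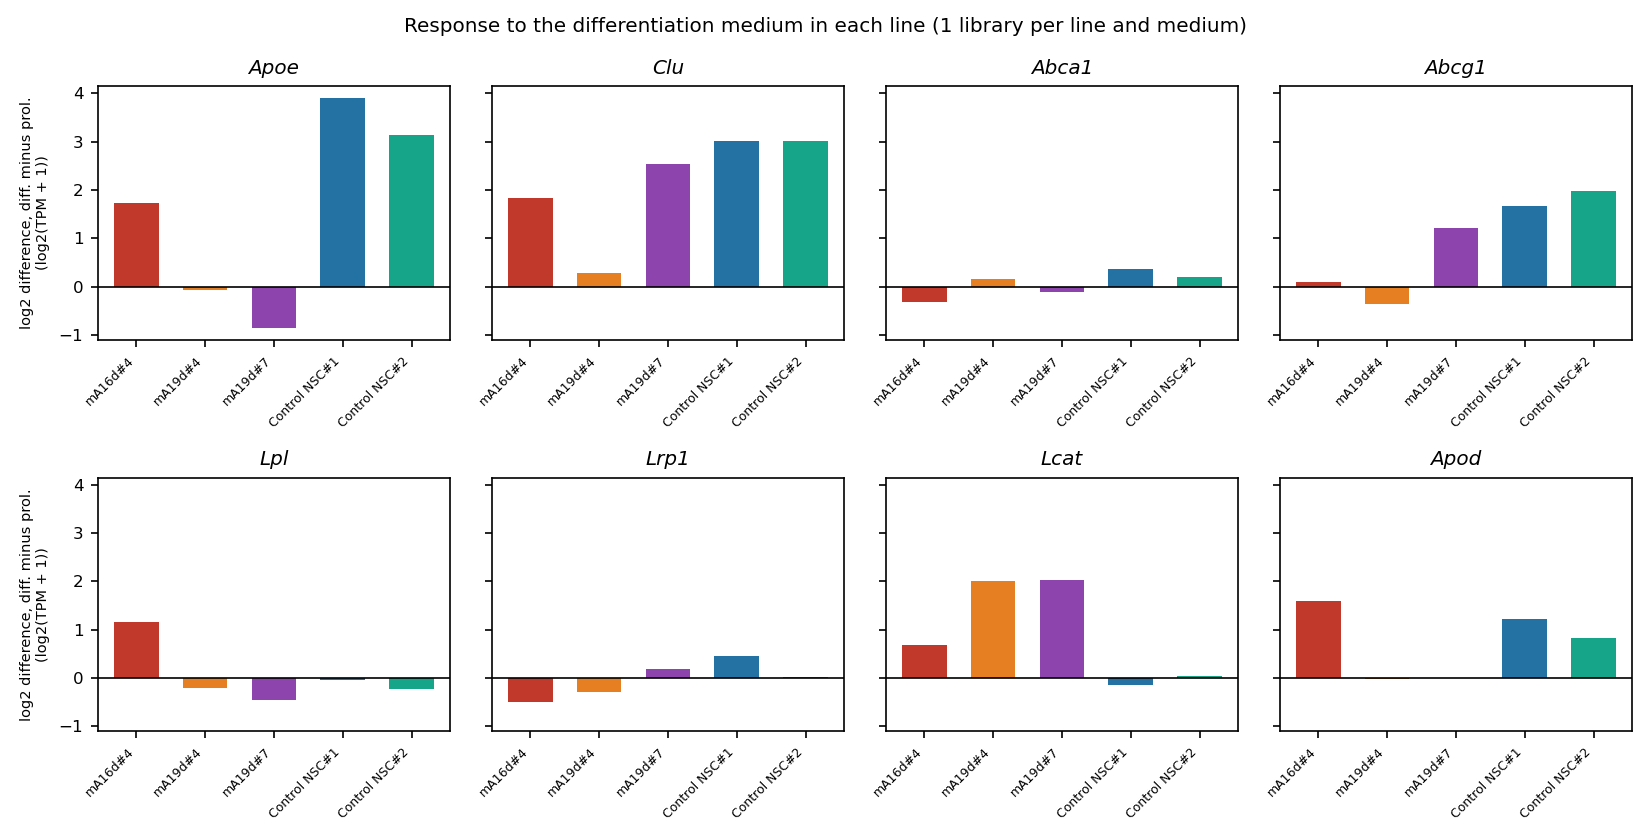
Difference of log2(TPM + 1) between differentiation and proliferation medium within each line, 1 library per line and medium, for the 8 genes on a shared axis. Apoe differed by 1.72, -0.07 and -0.86 in the Atrx-deleted lines, against 3.91 and 3.14 in the control lines.

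Clu (ENSMUSG00000022037, chromosome 14, 65968483 to 65981547) encodes clusterin, a secreted chaperone that also carries lipid on brain lipoproteins. In differentiation medium it had 46.8, 39.3 and 280 TPM in mA16d#4, mA19d#4 and mA19d#7, against 228 and 160 TPM in Control NSC#1 and Control NSC#2. The library labelled mA19d#7 was above both control libraries and the other 2 Atrx-deleted libraries were below them, so the groups overlapped. The log2 difference was -1.24 (95% interval -2.92 to 0.45, limma adjusted p = 0.396) with that library and -2.13 (limma adjusted p = 0.0409) without it. In proliferation medium Clu had 12.4, 32.1 and 47.4 TPM in the Atrx-deleted lines, against 27.2 and 18.9 TPM in the control lines (log2 difference 0.23, limma adjusted p = 0.932).

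Clu was higher in differentiation than in proliferation medium in all 5 lines. The ratio was 3.76, 1.23 and 5.9 in mA16d#4, mA19d#4 and mA19d#7, against 8.35 and 8.46 in Control NSC#1 and Control NSC#2. In control lines the log2 difference was 3.02 (95% interval 1.17 to 4.86, limma adjusted p = 0.0702), and with the line as a block the limma adjusted p was 0.0268. Without the mA19d#7 library in differentiation medium, the unblocked limma adjusted p was 0.00874. In Atrx-deleted lines the difference was 1.55 (95% interval 0.04 to 3.06, limma adjusted p = 0.322), and without that library it was 0.66 (limma adjusted p = 0.447). The difference of the responses was -1.47 (limma adjusted p = 0.831) with it and -2.36 (limma adjusted p = 0.248) without it.

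Apod (ENSMUSG00000022548, chromosome 16, 31296192 to 31314808) encodes apolipoprotein D, a small lipid-binding carrier of the lipocalin family. It was near the limit of measurement. In differentiation medium it had 2.15, 0.445 and 0.00391 TPM in mA16d#4, mA19d#4 and mA19d#7, against 1.45 and 1.66 TPM in Control NSC#1 and Control NSC#2. The log2 difference in differentiation medium was -0.62 (limma adjusted p = 0.539) with the mA19d#7 library and -0.26 (limma adjusted p = 0.801) without it. In proliferation medium the 5 libraries lay between 0.00547 and 0.505 TPM. The value 0.00391 TPM is the floor of the table, shared by 1213 genes in every library. Fitted differences on log2(TPM + 1) understate folds at such levels, and limma adjusted p-values for Apod lay between 0.37 and 0.948 over the 5 comparisons.

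Abca1 (ENSMUSG00000015243, chromosome 4, 53030787 to 53159895) is on the minus strand. In differentiation medium it had 55.1, 121 and 143 TPM in the Atrx-deleted lines mA16d#4, mA19d#4 and mA19d#7, against 314 and 249 TPM in Control NSC#1 and Control NSC#2. In proliferation medium it had 68.4, 109 and 155 TPM in the Atrx-deleted lines, against 245 and 217 TPM in the control lines. All 6 Atrx-deleted libraries, at 55.1 to 155 TPM, were below all 4 control libraries, at 217 to 314 TPM. Of all tested genes, 614 (3.92%) were ordered in the same way. Among the 8 genes Abca1 was the only one.

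The log2 difference of Abca1 was -1.49 in differentiation medium (SE 0.403, 95% interval -2.39 to -0.60, limma adjusted p = 0.0786) and -1.13 in proliferation medium (95% interval -2.02 to -0.23, limma adjusted p = 0.258). Without the mA19d#7 library in differentiation medium, the difference in that medium was -1.76 (limma adjusted p = 0.0389). Between media the levels of Abca1 were close. The ratio of differentiation to proliferation medium was 0.807, 1.11 and 0.921 in the Atrx-deleted lines and 1.28 and 1.15 in the control lines. In control lines the log2 difference between media was 0.28 (limma adjusted p = 0.796), whereas the value for Apoe was 3.53.

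Abcg1 (ENSMUSG00000024030, chromosome 17, 31057675 to 31117988), which exports cholesterol to particles that already carry lipid, was much lower in level than Abca1. Its level in differentiation medium was 0.0772, 0.0221 and 1.34 TPM in mA16d#4, mA19d#4 and mA19d#7, against 3.17 and 3.45 TPM in Control NSC#1 and Control NSC#2. The groups did not overlap, with the library labelled mA19d#7 nearest to the controls. The log2 difference was -1.65 (SE 0.458, 95% interval -2.67 to -0.64, limma adjusted p = 0.0843), and without that library it was -2.04 (limma adjusted p = 0.0309).

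In proliferation medium Abcg1 was below 1 TPM in all 5 libraries, at 0.00518, 0.308 and 0.0055 TPM in the Atrx-deleted lines, against 0.306 and 0.132 TPM in the control lines. In control lines the log2 difference between differentiation and proliferation medium was 1.82 (95% interval 0.71 to 2.94, limma adjusted p = 0.0696). Without the mA19d#7 library in differentiation medium it passed (limma adjusted p = 0.0314), and with the line as a block it did not (limma adjusted p = 0.127).

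**Figure D3:**
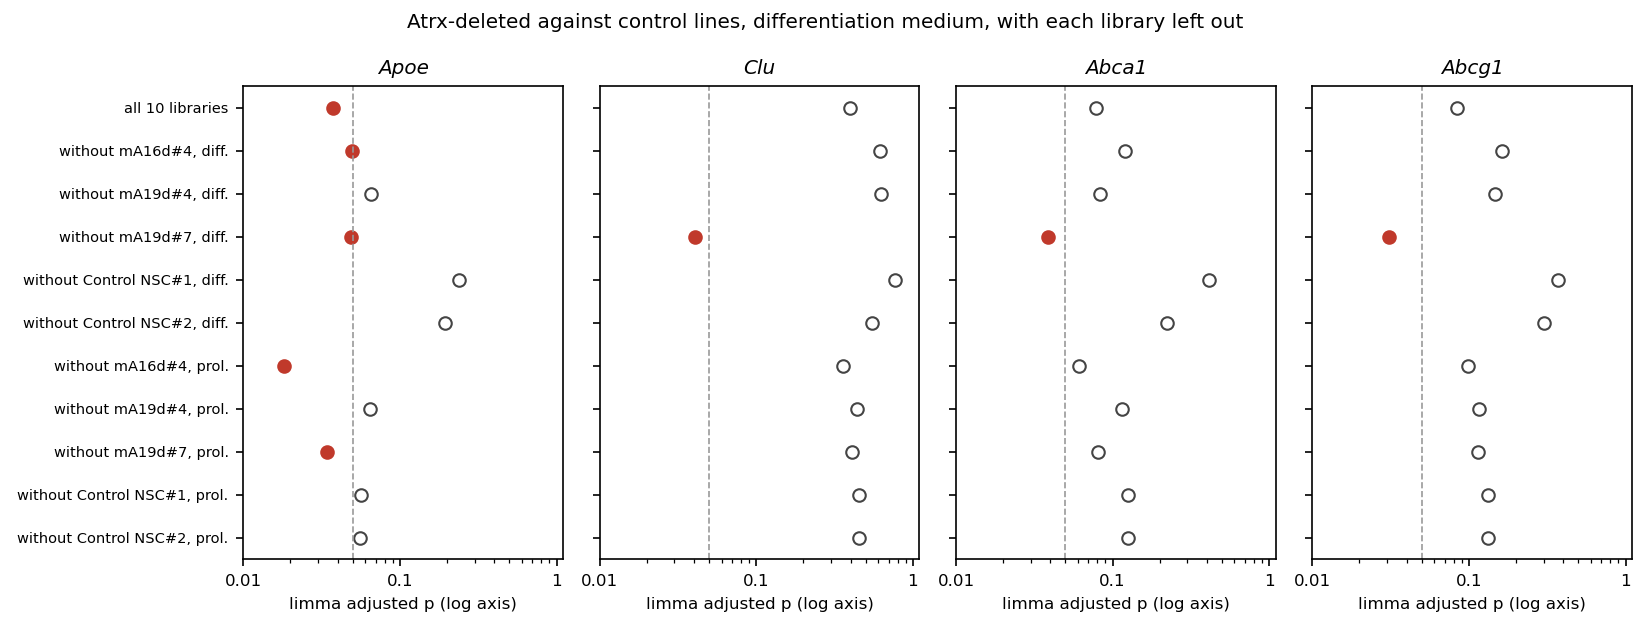
Limma adjusted p (log axis, dashed line at 0.05) for Atrx-deleted against control lines in differentiation medium with all 10 libraries and with each library left out in turn, for Apoe, Clu, Abca1 and Abcg1; filled points are below 0.05. Apoe lay between 0.0182 and 0.239, and Clu, Abca1 and Abcg1 were below 0.05 only without the mA19d#7 library in differentiation medium.

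Lcat (ENSMUSG00000035237, chromosome 8, 105939551 to 105943382), the enzyme that esterifies cholesterol on particles carrying Apoe, spread more than 10-fold over the Atrx-deleted libraries. Its level in differentiation medium was 44.6, 13.6 and 32.1 TPM in mA16d#4, mA19d#4 and mA19d#7, against 22.8 and 30.2 TPM in Control NSC#1 and Control NSC#2. The log2 difference there was 0.04 (limma adjusted p = 0.984) with the mA19d#7 library and -0.08 (limma adjusted p = 0.97) without it. In proliferation medium it had 27.4, 2.63 and 7.11 TPM in the Atrx-deleted lines, against 25.3 and 29.1 TPM in the control lines. In proliferation medium mA16d#4 lay between the control lines, and mA19d#4 and mA19d#7 were below them. The ratio of differentiation to proliferation medium was 1.63, 5.17 and 4.51 in the Atrx-deleted lines, against 0.901 and 1.04 in the control lines. Between media the log2 difference was 1.57 in Atrx-deleted lines (95% interval 0.14 to 3.01, limma adjusted p = 0.299) and -0.05 in control lines (limma adjusted p = 0.991), and the difference of the responses, 1.62, had an interval of -0.65 to 3.89 (limma adjusted p = 0.801).

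Lpl (ENSMUSG00000015568, chromosome 8, 68880491 to 68907448) encodes the lipase that frees fatty acids from triglyceride-rich particles. Levels in differentiation medium were 56.9, 29.3 and 22.7 TPM in the Atrx-deleted lines, against 23.8 and 19.5 TPM in the control lines, and these ranges overlapped. In proliferation medium it had 24.8, 34.1 and 31.8 TPM in the Atrx-deleted lines, against 24.4 and 23.1 TPM in the control lines, with a gap of less than 1 TPM between the groups. The log2 differences were 0.62 (95% interval -0.12 to 1.36, limma adjusted p = 0.328) in differentiation and 0.32 (95% interval -0.42 to 1.06, limma adjusted p = 0.717) in proliferation medium. Without the mA19d#7 library the difference in differentiation medium was 0.89 (limma adjusted p = 0.108). Lpl was the only one of the 8 with a positive difference in both media.

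Lrp1 (ENSMUSG00000040249, chromosome 10, 127538161 to 127621148), a large endocytic receptor for particles that carry Apoe, varied least. It lay between 129 and 234 TPM in all 10 libraries. Means in differentiation medium were 168 ± 56.9 TPM in Atrx-deleted lines (SD, n = 3) and 203 ± 2.09 TPM in control lines (SD, n = 2), and in proliferation medium 187 ± 26.2 TPM in Atrx-deleted lines and 174 ± 38.5 TPM in control lines. The 95% interval of the log2 difference was -0.88 to 0.25 in differentiation medium and -0.45 to 0.68 in proliferation medium, which leaves out a change of 1 in either direction. In differentiation medium the difference was -0.32 (limma adjusted p = 0.522) with the mA19d#7 library and -0.58 (limma adjusted p = 0.103) without it.

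Read as a set, the 8 genes showed few calls. In differentiation medium 1 of 8 (Apoe) was called lower in Atrx-deleted lines, where limma called 1.33% of all tested genes lower, and 6 of 8 differences were negative with a median of -0.93, against a median of 0.02 over all tested genes. Apoe, Abca1 and Abcg1, 3 of the 8, had every Atrx-deleted library below every control library, an order that 18.1% of all tested genes had. These counts and the median include Abcg1 and Apod, whose passing the filter depended on the control libraries in this medium. Their place in them is therefore no independent support. In proliferation medium none of the 8 was called, where limma called 0.46% of tested genes, and 1 had an unadjusted p below 0.05, as had 13.7% of tested genes. Lpl was without overlap higher, as were 17.8% of all tested genes, and Abca1 without overlap lower, as were 20.2%. The median over the 8 genes was -0.01, against -0.02 over all tested genes.

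Between media, 1 of 8 (Apoe) was called higher in control lines, where limma called 1.95% of tested genes higher. Of the 8, 5 were without overlap higher in differentiation medium, as were 29.6% of all tested genes, and the median was 0.65, against -0.01 over all. The 5 include Abcg1 and Apod, which passed the filter only with the control libraries in differentiation medium, where they were high. Neither the count nor the median is therefore independent of the filter. In Atrx-deleted lines none of the 8 was called (0.083% of tested genes were) and 2 had an unadjusted p below 0.05, as had 14.8% of tested genes. None of the 8 was without overlap between media there, and 16.5% of all tested genes were, in either direction. The median over the 8 genes was 0.29, against 0.01 over all. None of the 8 passed the test of the difference of the responses, where 2 had an unadjusted p below 0.05, as had 7.02% of tested genes. These comparisons use the same 10 libraries, so their values are not independent of each other.

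**Figure D4:**
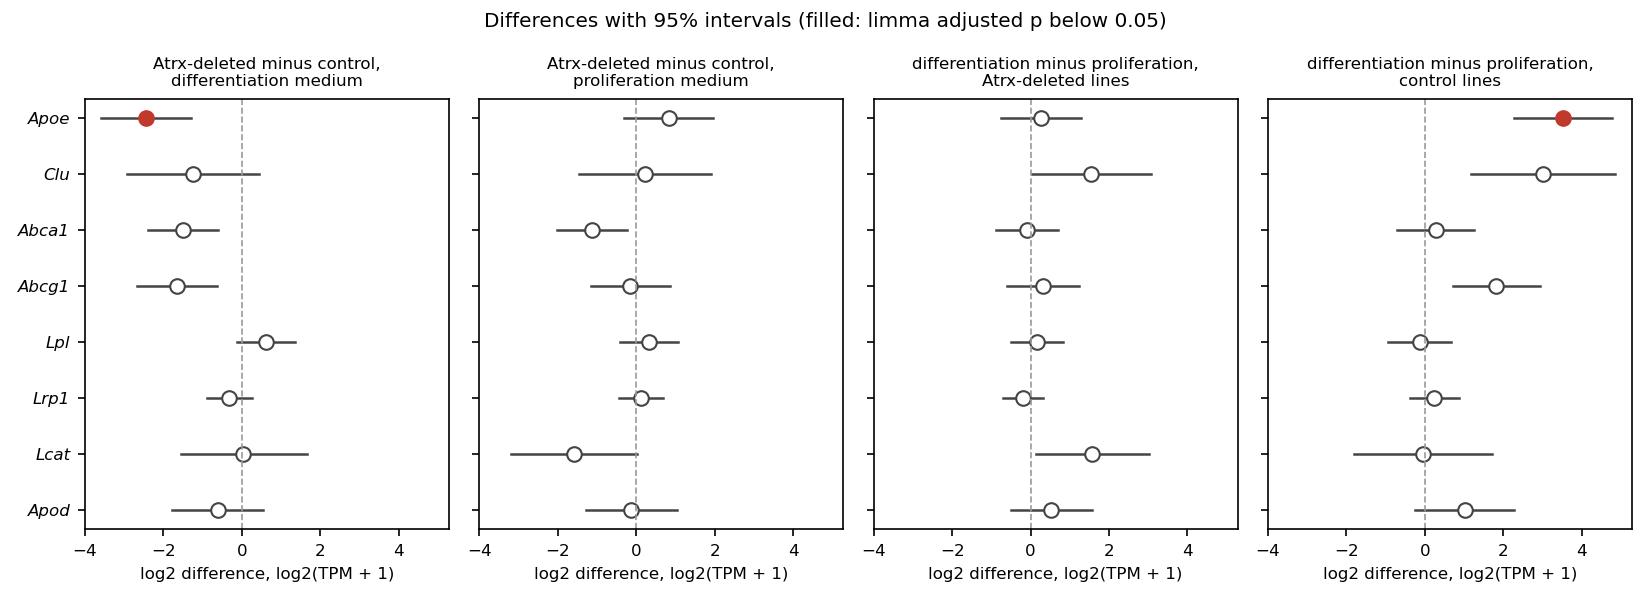
Fitted log2 difference with its 95% interval for each of the 8 genes in 4 comparisons, on the log2(TPM + 1) scale; filled points have a limma adjusted p below 0.05. Apoe was below 0.05 in 2 of the comparisons, at -2.44 between Atrx-deleted and control lines in differentiation medium and at 3.53 between media in control lines.

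TPM is scaled to transcript length, but the deposited values had been quantile-normalised, so the shares and the order of levels below are of the normalised values and not of each library's own proportions. Apoe made up 80.7%, 74.6% and 57.3% of the summed TPM of the 8 genes in the Atrx-deleted lines in differentiation medium, against 87.2% and 90.9% in the control lines. In proliferation medium the share was 56.9%, 75.4% and 79.5% in the Atrx-deleted lines, against 43.4% and 60.6% in the control lines. The sum of the 8 genes in differentiation medium was 1799, 1310 and 1668 TPM in the Atrx-deleted lines, against 6217 and 7308 TPM in the control lines. In Atrx-deleted lines in differentiation medium the order of mean levels after Apoe was Lrp1, Clu, Abca1, Lpl, Lcat, Apod and Abcg1, and only Apoe and Lcat were without overlap with the next gene in that order. In control lines in that medium the order was Abca1, Lrp1, Clu, Lcat, Lpl, Abcg1 and Apod, and Lrp1 with Clu and Lcat with Lpl overlapped.

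Of 11526 tested genes with at least 10 TPM in their highest group, the 5 whose values followed Apoe most closely over the 10 libraries were Zbtb25 (Pearson's r 0.959), Mgat3 (0.946), Hacd3 (0.93), Agpat3 (0.93) and Ttyh1 (0.926). These coefficients describe 10 libraries that share lines and groups, and none is a test. Mean levels of Ttyh1 were 529 TPM in Atrx-deleted and 1108 TPM in control lines in differentiation medium, and in proliferation medium 491 TPM in Atrx-deleted and 375 TPM in control lines. Agpat3, an acyltransferase of phospholipid synthesis, had means of 172 TPM in Atrx-deleted and 313 TPM in control lines in differentiation medium, and of 141 TPM in Atrx-deleted and 150 TPM in control lines in proliferation medium.

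Apoe lies in a cluster of apolipoprotein genes. Within 50000 bases, Apoc1 had mean levels of 2.9 TPM in Atrx-deleted and 15.7 TPM in control lines in differentiation medium, a log2 difference of -2.16 that did not pass (limma adjusted p = 0.0713). Clptm1 was called, with 79.8 TPM in Atrx-deleted and 143 TPM in control lines in differentiation medium (log2 difference -0.84, limma adjusted p = 0.0292). Tomm40, which is next to Apoe and encodes a subunit of the mitochondrial import pore, had 35.8 TPM in Atrx-deleted and 60.3 TPM in control lines (log2 difference -0.73, limma adjusted p = 0.218). Apoc4 was close to 1 TPM or below in every group (log2 difference -0.52, limma adjusted p = 0.706), and Apoc2 was not tested.

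The wider pathway was covered by 6 lists with 152 genes other than the 8, of which 127 were tested. In differentiation medium 2 of the 127 were called lower in Atrx-deleted lines, beside 1.33% of all tested genes, and 0 were called higher. In proliferation medium 2 were called higher, beside 0.262% of all tested genes, and 0 lower. Of these 2, Cyp27a1 passed the filter only through the Atrx-deleted libraries. Between media 5 were called higher and 1 lower in control lines, where limma called 1.95% of all tested genes higher and 2.56% lower. In Atrx-deleted lines 0 were called higher and 1 lower between media, beside 0.0702% of all tested genes called lower. None passed the test of the difference of the responses. The 17 tested exporters of the ATP-binding cassette family, the 28 receptors and their helpers and the 19 sterol-sensing regulators had no call in any comparison.

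Pltp, phospholipid transfer protein, moves phospholipid between lipoproteins and was 1 of 10 tested genes of the apolipoprotein list. In differentiation medium it had 9.01, 12.9 and 15.3 TPM in mA16d#4, mA19d#4 and mA19d#7, against 57.1 and 54.5 TPM in Control NSC#1 and Control NSC#2. In proliferation medium it had 7.59, 14.7 and 16.3 TPM in the Atrx-deleted lines, against 11.3 and 15.6 TPM in the control lines. The Atrx-deleted lines thus had similar levels in both media, and the control lines had more in differentiation medium. The log2 difference of Pltp between Atrx-deleted and control lines was -2.11 in differentiation medium (SE 0.339, limma adjusted p = 0.016), and in control lines it rose by 1.99 with differentiation (limma adjusted p = 0.0189). The first call was lost without either control library in differentiation medium, with limma adjusted p-values of 0.171 and 0.105, and when only the compared groups were fitted (0.105), and the second was lost without any one of the 4 control libraries. The other 9 tested genes of the list had no call. Of the 10 differences in differentiation medium 9 were negative, with a median of -0.37, against 0.02 over all tested genes. Apoc4, which is among the 10, had a mean above 1 TPM only in control lines in differentiation medium (1.26 TPM). Its passing the filter may thus have depended on that group, and its place in this count is no independent support.

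Among lipases and their partners, 12 of which were tested, Lipa and Lipg changed with the medium in control lines. Lipa, the lysosomal acid lipase, averaged 29.6 ± 1.03 TPM in differentiation and 98.2 ± 1.54 TPM in proliferation medium (SD, n = 2 each), a fall of 1.70 (limma adjusted p = 0.00532). In Atrx-deleted lines its levels were 48.8, 42.4 and 62.0 TPM in differentiation and 81.3, 75.4 and 60.9 TPM in proliferation medium. Lipg, endothelial lipase, averaged 25.1 ± 0.529 TPM in differentiation and 8.08 ± 1.52 TPM in proliferation medium in control lines (SD, n = 2 each), a rise of 1.53 (limma adjusted p = 0.0314, and 0.0755 with the line as a block). The call on Lipa was lost without 3 of the 4 control libraries in turn, with limma adjusted p-values of 0.095, 0.0715 and 0.052. The call on Lipg was lost without any one of the 4 control libraries, with limma adjusted p-values between 0.0989 and 0.268, and with no filter (0.0607).

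Of 41 tested genes of intracellular cholesterol and fatty acid handling, Mfsd2a, a transporter of lysophospholipids that carry docosahexaenoic acid, had the largest change. In control lines it averaged 354 ± 52.8 TPM in differentiation and 24.9 ± 4.48 TPM in proliferation medium (SD, n = 2 each), a rise of 3.78 (limma adjusted p = 0.00532). In Atrx-deleted lines it had 162, 116 and 220 TPM in differentiation and 46.0, 28.3 and 12.5 TPM in proliferation medium. Acsl6 and Acsl3, which activate long-chain fatty acids, rose in control lines by 1.64 (limma adjusted p = 0.0117) and 1.46 (limma adjusted p = 0.0191). Each of the calls on Mfsd2a, Acsl6 and Acsl3 was lost without at least 3 of the 4 control libraries in turn.

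Gramd1a, which carries cholesterol from the plasma membrane to the endoplasmic reticulum, had 25.8, 32.4 and 29.4 TPM in the Atrx-deleted lines in differentiation medium, against 50.0 and 64.0 TPM in the control lines. The log2 difference was -0.94 (limma adjusted p = 0.0237), a call lost without any one of the 4 control libraries and when only the compared groups were fitted (limma adjusted p = 0.175). In Atrx-deleted lines it fell with differentiation by 1.06 (limma adjusted p = 0.0488, and 0.0752 with the line as a block), and this call held without 2 of the 10 libraries in turn. Gramd1a was also lower in differentiation medium in control lines (log2 difference -0.48, limma adjusted p = 0.188). The difference of the responses was -0.59 (limma adjusted p = 0.67), so the fall was not shown to be particular to Atrx-deleted lines. In proliferation medium, of the 2 genes of the list that rose in Atrx-deleted lines, Cyp27a1, a mitochondrial sterol hydroxylase, had 5.21, 12.5 and 9.21 TPM in the Atrx-deleted lines, against 0.0131 and 0.0913 TPM in the control lines. The groups did not overlap, and the log2 difference was 3.17 (limma adjusted p = 0.039). Without the line mA19d#7 the limma adjusted p was 0.0599, and without either control library in proliferation medium it was 0.247 or more. The call on Cyp27a1 held without 3 of the 10 libraries in turn. Cyp27a1 reached 1 TPM only in Atrx-deleted libraries, so its passing the filter depended on the genotype in which it was high. In differentiation medium it had 1.62, 7.26 and 2.38 TPM in the Atrx-deleted lines, against 0.0901 and 0.0128 TPM in the control lines. The log2 difference there was 1.99 (limma adjusted p = 0.0732).

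**Figure D5:**
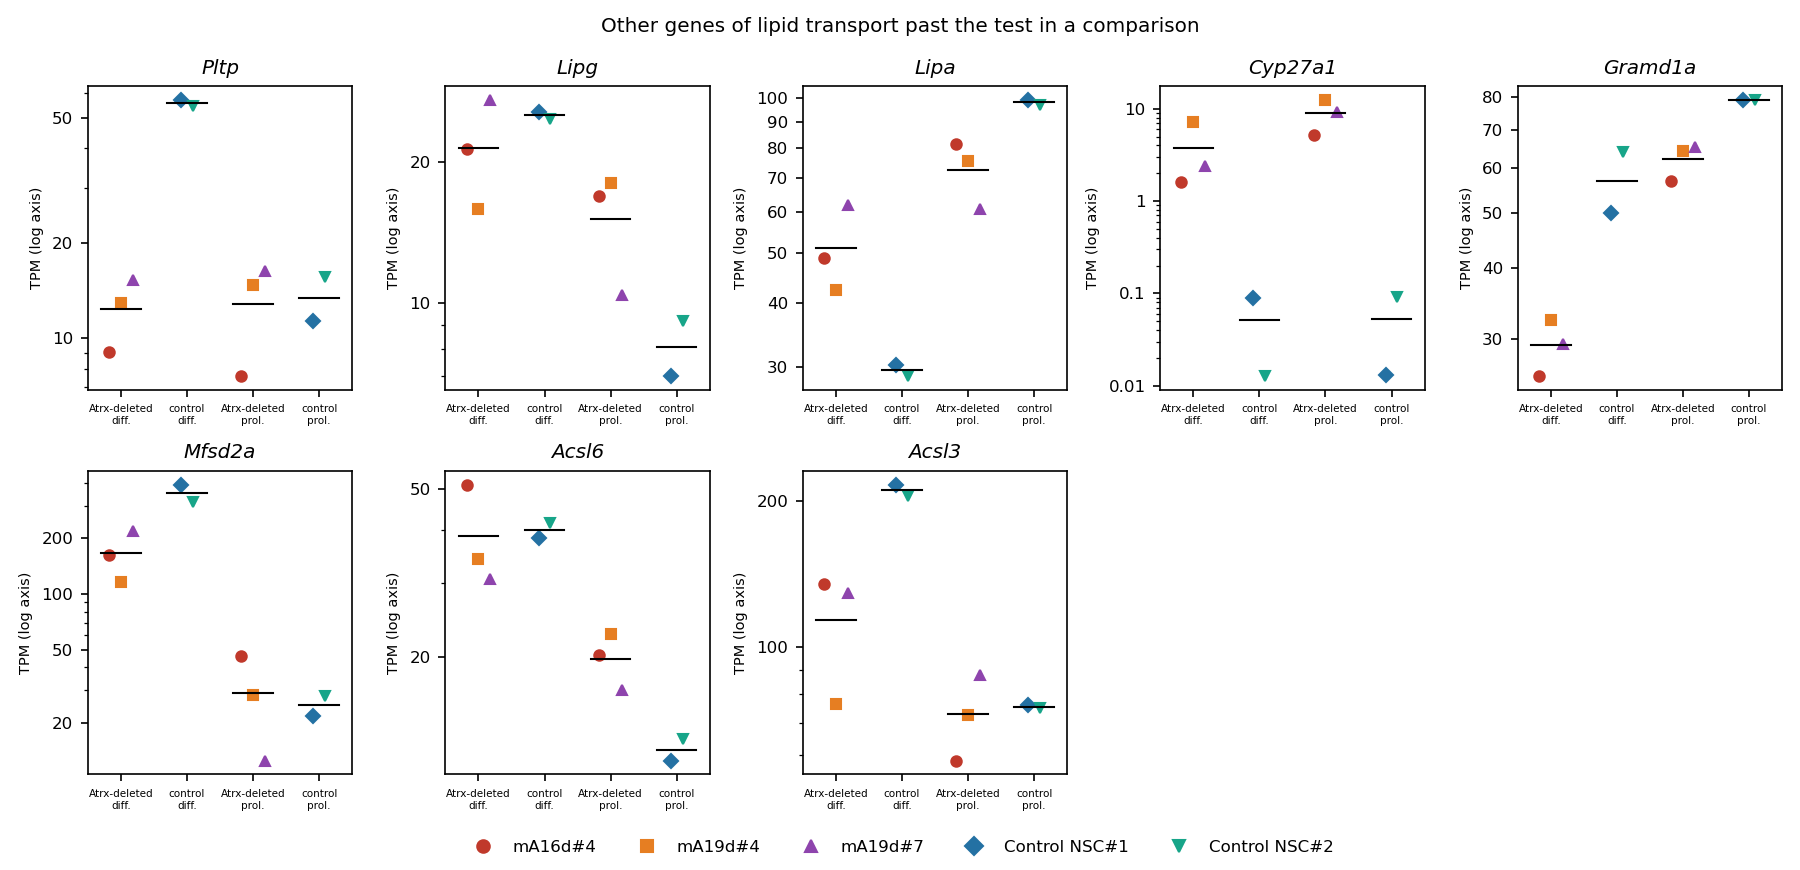
Level in TPM (log axis, separate scale per gene) in each library of 8 other lipid transport genes that passed the test in a comparison, with the line given by symbol and colour and the group mean by a bar. Pltp lay between 9.01 and 15.3 TPM in Atrx-deleted lines and at 57.1 and 54.5 TPM in control lines in differentiation medium.

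Receptors and regulators of known importance for the 8 genes were picked after their values were seen, and none passed the test. The Apoe receptors Vldlr and Lrp8 averaged 27.9 ± 11.6 and 37.4 ± 10.8 TPM in Atrx-deleted lines in differentiation medium (SD, n = 3), against 26.0 ± 1.62 and 52.8 ± 4.37 TPM in control lines (SD, n = 2). Nr1h2, which encodes liver X receptor beta, averaged 48.9 ± 14.8 TPM in Atrx-deleted and 61.5 ± 6.11 TPM in control lines in that medium (log2 difference -0.36, limma adjusted p = 0.422). Nr1h3, which encodes liver X receptor alpha, averaged 7.05 ± 2.12 TPM in Atrx-deleted and 3.86 ± 2.04 TPM in control lines (log2 difference 0.76, limma adjusted p = 0.416). Rxra, another nuclear receptor gene, averaged 49.7 ± 8.77 TPM in Atrx-deleted and 69.9 ± 0.103 TPM in control lines (log2 difference -0.50, limma adjusted p = 0.228). Between media Rxra differed by 0.82 in control lines (limma adjusted p = 0.0797) and by -0.01 in Atrx-deleted lines (limma adjusted p = 0.992). Srebf1, a regulator of lipid synthesis, averaged 172 ± 67.0 TPM in Atrx-deleted and 45.8 ± 27.3 TPM in control lines in differentiation medium (log2 difference 1.94, limma adjusted p = 0.0732). In proliferation medium Srebf1 averaged 144 ± 87.1 TPM in Atrx-deleted and 34.2 ± 8.49 TPM in control lines (log2 difference 1.91, limma adjusted p = 0.146). Srebf2, which acts on cholesterol genes, averaged 187 ± 1.84 TPM in Atrx-deleted and 197 ± 1.94 TPM in control lines in differentiation medium (log2 difference -0.07, limma adjusted p = 0.88).

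Markers of other cell types moved with some of these results, and their part in them was not tested. Summed over 15 astrocyte genes that do not include the 8, the level in differentiation medium was 11410, 5852 and 9546 TPM in mA16d#4, mA19d#4 and mA19d#7, against 10450 and 10040 TPM in Control NSC#1 and Control NSC#2. The groups overlapped in this sum, to which a few abundant genes such as Glul, Slc1a3, Aldoc and Mlc1 contribute most. Of the 14 tested genes, 8 had a negative difference between Atrx-deleted and control lines in differentiation medium, with a median of -0.48, against 0.02 over all tested genes. Only Slc4a4, a bicarbonate transporter, was called lower, with means of 124 TPM in Atrx-deleted and 636 TPM in control lines (log2 difference -2.40, limma adjusted p = 0.00496). The gap junction gene Gja1 averaged 137 TPM in Atrx-deleted and 473 TPM in control lines, and the glutamate transporter gene Slc1a2 170 TPM in Atrx-deleted and 396 TPM in control lines. Both were lower without overlap, as were 18.1% of all tested genes, and neither was called. Slc4a4, Fgfr3 (log2 difference -0.79) and Acsbg1 (log2 difference -0.98) were also lower without overlap, and of these only Slc4a4 was called. The 6 positive differences were those of Gfap, Aqp4, Sox9, Aldh1l1, Aldoc and Slc1a3, and none was called. Sox9 was higher without overlap (log2 difference 0.49). Gfap, the intermediate filament of astrocytes, averaged 498 TPM in Atrx-deleted and 3.11 TPM in control lines and was not called, with its 3 Atrx-deleted libraries between 3.49 and 1411 TPM. Between media 4 of the 14 (Slc1a2, Slc1a3, Slc4a4 and Fgfr3) rose in control lines, where limma called 1.95% of all tested genes higher and where Apoe also rose. The median over the list was 0.89 in Atrx-deleted and 1.0 in control lines. These astrocyte genes were picked after their values were seen.

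The cell cycle list of 14 genes had 9 called higher in Atrx-deleted lines in differentiation medium, where limma called 1.55% of all tested genes higher, with sums of 585 to 1315 TPM in Atrx-deleted and 308 to 315 TPM in control libraries. Of the microglia and macrophage list, 14 genes were in the table, and in differentiation medium 10 were under 1 TPM in every Atrx-deleted library and 10 in every control library. Its sum of 52.0 to 97.1 TPM in Atrx-deleted and 56.5 to 71.5 TPM in control lines overlapped between the groups, and Trem2, Tyrobp and Cx3cr1 were below 0.1 TPM. Endothelial and mural genes summed to 17.7 to 91.1 TPM in Atrx-deleted and 109 to 111 TPM in control lines in differentiation medium, and to 53.3 to 79.6 TPM in Atrx-deleted and 196 to 232 TPM in control lines in proliferation medium. Fibroblast and leptomeningeal genes summed to 41.4 to 77.5 TPM in Atrx-deleted and 116 to 125 TPM in control lines in differentiation medium, and to 53 to 67.1 TPM in Atrx-deleted and 96.1 to 98.7 TPM in control lines in proliferation medium. Both sums were lower without overlap in Atrx-deleted lines in both media. Of the 7 tested fibroblast and leptomeningeal genes, however, 4 had a positive and 3 a negative difference in each medium. Their median difference was 0.23 in differentiation and 0.36 in proliferation medium, so the lower sum does not describe most genes of that list. Cspg4, which is also in the oligodendrocyte lineage list, made up between 68.6% and 97.3% of the endothelial and mural sum in each library, while Cdh5, Cldn5, Pdgfrb and Rgs5 were below 0.1 TPM in every library. Pdgfra, also in the oligodendrocyte lineage list, averaged 22.0 TPM in Atrx-deleted and 87.0 TPM in control lines in differentiation medium and was the 1 fibroblast and leptomeningeal gene called lower there (limma adjusted p = 0.0271). It made up between 13.0% and 57.9% of that sum in Atrx-deleted and 71.2% and 73.5% in control lines in that medium. No endothelial or mural gene was called. Of 11 tested oligodendrocyte lineage genes, 2, Pdgfra among them, were called lower in Atrx-deleted lines in differentiation medium, beside 1.33% of all tested genes. There 9 of the 11 had a negative and 2 a positive difference, with a median of -0.56, against 0.02 over all tested genes. The sums of that list overlapped, at 2063 to 5251 TPM in Atrx-deleted and 4097 to 4449 TPM in control libraries.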

How the data were processed

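Total RNA libraries of mouse neural stem cells were aligned with STAR to mm10, per the submitters' processing notes. The quantification program, like every version, is not given in the sources used here. The table deposited by the authors holds log2 values, read as log2 TPM because the back-transformed values sum to 997524 in each library. All 10 libraries hold the same sorted set of values, so the values deposited by the authors had been quantile-normalised, depth is unknown, and precision was taken from the spread between lines.

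For the tests, log2(TPM + 1) of the back-transformed values entered a single fit in limma 3.58.1 (R 4.3.3), with 4 group means, a trended variance and 6 residual degrees of freedom. Fold changes on this scale understate those of low genes. Tested genes had 1 TPM or more in 2 or more libraries, and Benjamini-Hochberg adjustment ran over these 15660 genes with a threshold of 0.05. Genotypes were compared within each medium, media within each genotype, and the responses to the medium between genotypes, 5 comparisons in all. The code was tested on simulated data.

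Each line appears in both media, so it pairs the libraries by design. Correlations of deviations within a line were 0.159 for mA16d#4, 0.404 for mA19d#4, -0.194 for mA19d#7 and 0.0624 for the control lines.

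The 8 genes, the pathway and marker lists and the naming rule were chosen with earlier results of these data known. The rule named the 8 genes, up to 3 called genes per list, direction and comparison, and the 5 genes most like Apoe. Some genes the rule names are not reported here. The neighbours of Apoe were taken by distance. Positions are from GENCODE M21 (GRCm38) and promoters from RefSeq. Alternatives were pseudocounts, filters, the trend, robust estimation, the compared groups alone, the line as a block, median-of-ratios factors, the deposited log2 values, a weight per group, and libraries or the line mA19d#7 left out. The block without the mA19d#7 differentiation library was added after seeing the data.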

Additional observations from a re-analysis of the deposited data

How the results depend on the processing

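Of 40 log2 differences (8 genes in 5 comparisons), 22 kept their sign and their side of the threshold under every alternative run for them, of which there were up to 22. The block without the mA19d#7 differentiation library was run for the comparisons between media and of the responses, the compared groups alone gave no difference of the responses, and the filter of 5 TPM left out Abcg1 and Apod. With each library left out in turn, the difference of Apoe between Atrx-deleted and control lines ranged between 0.29 and 1.36 in proliferation medium and between -2.63 and -2.29 in differentiation medium. Between media it ranged between 2.99 and 4.06 in control lines and between -0.27 and 0.72 in Atrx-deleted lines, and the difference of the responses between -3.80 and -2.73. The number of the 8 genes called ranged between 0 and 4 for Atrx-deleted against control lines in differentiation medium and between 0 and 3 between media in control lines, and was 0 in the other comparisons. Over all tested genes, calls ranged between 0 and 250 for Atrx-deleted against control lines in proliferation medium and between 11 and 939 in differentiation medium. Between media they ranged between 6 and 1450 in control lines and between 0 and 348 in Atrx-deleted lines, and between 0 and 3 for the difference of the responses.

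The difference of Apoe in differentiation medium stayed at -2.44, and its limma adjusted p was 0.107 with no filter, 0.0607 without the trend and 0.122 with the compared groups alone. In that comparison 0 of the 8 genes were called with no filter, 0 with the compared groups alone and 4 without the line mA19d#7, where all genes called numbered 832, against 2 with the compared groups alone. Between media in control lines, 2 of the 8 were called without the trend, 2 with the replicate block, which added Clu, and 3 with the compared groups alone, with a weight per group or without the line mA19d#7. All genes called there numbered 2080 with the compared groups alone, 2984 with the weight and 1328 without that line.

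In proliferation medium the genes called numbered 37 with no filter, 39 on the deposited log2 values, 672 with a weight per group and 229 without the line mA19d#7. Between media in Atrx-deleted lines they numbered 2 with no filter, 0 without the trend, 0 with the compared groups alone, 6 with the replicate block, 1 with the weight and 45 without that line. For the difference of the responses they numbered 0 with a pseudocount of 0.1, a filter of 5 TPM, the replicate block, the deposited log2 values or without that line, 30 with no filter, 2 without the trend and 6 with the weight.

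Signs turned only for differences that had not passed the test. Without the line mA19d#7, the difference between Atrx-deleted and control lines was -0.17 for Clu in proliferation and -0.08 for Lcat in differentiation medium. Abcg1 between media in Atrx-deleted lines was -0.13 without that line and -0.13 with the replicate block without the mA19d#7 differentiation library. With single libraries left out, the ranges in proliferation medium were -0.17 to 0.76 for Clu, -0.11 to 0.34 for Lrp1 and -0.38 to 0.13 for Apod, and in differentiation medium -0.31 to 0.51 for Lcat. Between media they were -0.24 to 0.15 for Lcat in control lines, and -0.40 to 0.32 for Abca1, -0.07 to 0.53 for Abcg1 and -0.21 to 0.44 for Lpl in Atrx-deleted lines. For the difference of the responses they were -0.67 to 0.04 for Abca1 and -0.07 to 0.57 for Lpl. The causes were not tested. The replicate block was run for the 8 genes in each comparison and for the called comparisons of Pltp, Lipa, Lipg, Mfsd2a, Acsl3, Acsl6, Gramd1a and Cyp27a1. Among these it changed the calls on Clu and Lipg between media in control lines and on Gramd1a between media in Atrx-deleted lines. With 2 and 3 lines per group and unknown depth, levels near the floor of the table carry little precision.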
